A study of Homo sapiens with 8 samples.

Results

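The factors described here were 41 genes that encode the cytosolic translation initiation and elongation machinery: 36 genes of initiation factors, eIF5A included, and 5 genes of the elongation factors eEF1 and eEF2. They were chosen as a list of gene symbols, matched to gene identifiers, out of 58735 genes in the deposited tables. All 41 passed the filter on low counts (at least 10 counts in at least 2 libraries), which left 18242 genes to test.

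BEAS-2B, an established line of human bronchial epithelial cells, was grown at an air-liquid interface and exposed for 2 h to 1 ppm formaldehyde (FA) or to clean air (CA), with 6 h of recovery in both. RNA depleted of ribosomal RNA was sequenced as input (IN) and after pull-down with an antibody against 8-oxoG, the oxidised form of guanine (IP). The groups CA_IN, CA_IP, FA_IN and FA_IP held 2 biological replicates each, and the tables of the replicates carry the numbers 1 and 3. By the methods, input and pull-down of 1 treatment and number were split from a single RNA pool, so 4 RNA pools were compared. The labels name more than 1 clone for the antibody, so the clone is not certain, and all libraries come from a single cell line.

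Input libraries held 26152651 to 45144392 expected counts and pull-down libraries 16883500 to 23658012. Log2 CPM (counts scaled to library size) of the 2 libraries of a group correlated at 0.983 to 0.989 across genes. All 8 epithelial markers examined were above 10 CPM in every library (CDH1 121 to 143), while of the 3 leukocyte markers PTPRC and CD3E lay at or near 0 and CD14 at 4.3 to 7.43 CPM. Replicates varied around their group means with a coefficient of variation of 0.138 (edgeR's common dispersion 0.019). Transcripts with an effective length under 50 bases held 24.2% to 27.4% of the per-length signal in input and 6.07% to 10.1% in pull-down libraries. The part of this difference in the values below was not tested.

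Initiation begins when eIF2 carries the initiator tRNA to the small ribosomal subunit, where eIF1, eIF1A and eIF3 help to find the start codon, while eIF4E, eIF4G and the helicase eIF4A bring the capped mRNA. eIF2B recharges eIF2 with GTP, eIF5 and eIF5B act in start-site selection and subunit joining, and eIF6 keeps free large subunits apart from small ones. In elongation eEF1 delivers aminoacyl-tRNAs, eEF2 moves the ribosome along the mRNA and eIF5A helps it past difficult stretches. 8-oxoG arises from guanine in RNA under oxidation, so the guanines of an mRNA are the bases that the antibody's target can form from.

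The first 60 coding bases of the main coding isoform of 8 factors are shown because these mRNAs had among the highest or the lowest pull-down values of their complexes, or, for EIF1, because it is the near copy of the lowest. Guanines are in capitals and the sequences run 5′ to 3′ (build GRCh38, models of GENCODE 44).
EEF2: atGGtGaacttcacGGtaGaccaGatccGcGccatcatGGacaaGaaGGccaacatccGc
EIF3G: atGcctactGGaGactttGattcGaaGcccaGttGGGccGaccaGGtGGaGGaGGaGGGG
EIF6: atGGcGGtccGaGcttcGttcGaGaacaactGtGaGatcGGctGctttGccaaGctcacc
EIF5A: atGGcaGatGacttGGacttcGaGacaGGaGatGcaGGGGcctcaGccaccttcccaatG
EIF1B: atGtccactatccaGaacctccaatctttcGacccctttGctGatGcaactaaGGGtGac
EIF1: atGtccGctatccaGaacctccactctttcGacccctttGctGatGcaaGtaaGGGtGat
EIF4E: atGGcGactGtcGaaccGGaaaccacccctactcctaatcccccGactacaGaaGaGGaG
EIF5B: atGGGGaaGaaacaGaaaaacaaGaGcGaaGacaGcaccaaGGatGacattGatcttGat
EEF2 starts in exon 1 (chr19:3985378-3985380) and continues in exon 2 (chr19:3984294-3984350) of the minus strand. EIF3G lies in exons 1 and 2 (chr19:10119840-10119859 and chr19:10119661-10119700, minus strand), EIF6 in exon 2 (chr20:35284428-35284487, minus strand) and EIF5A in exon 2 (chr17:7309636-7309695, plus strand). EIF1B lies in exons 1 and 2 (chr3:40309942-40309972 and chr3:40310893-40310921, plus strand), and so does EIF1 (chr17:41689039-41689069 and chr17:41689778-41689806, plus strand). EIF4E lies in exons 1 and 2 (chr4:98929095-98929112 and chr4:98901941-98901982, minus strand) and EIF5B in exons 1 and 2 (chr2:99337555-99337589 and chr2:99360236-99360260, plus strand). These 60 bases hold 24 guanines in EIF3G, 18 in EIF5A, 17 in EIF6, 16 in EIF5B, 15 in EEF2, 13 in EIF4E, 12 in EIF1 and 10 in EIF1B. Over whole isoforms the order differs: guanine was 29.9% of the bases of EIF3G and EEF2, 29.1% of EIF6, 28.6% of EIF5A, 23.8% of EIF5B, 23.0% of EIF1, 19.1% of EIF4E and 18.7% of EIF1B. The isoform used held 34.6% of the gene's counts for EIF1 and 46.5% for EIF4E. That of EIF4E has 2427 bases in GENCODE 44 and 11523 in the authors' models, so its share is uncertain. The coding sequences of EIF1 and EIF1B are 339 bases each and 82.0% identical, with 4 differences in the 60 bases shown, so reads could be divided between these genes with error.

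Levels of the factors in input were compared per length, as TPM (counts corrected for transcript length and scaled to a common total) in CA_IN. EEF1A1, the eEF1 subunit that binds aminoacyl-tRNA, was by far the highest at 2615 ± 84.5 TPM (SD, n = 2; 2555 and 2674). It was followed by the eEF1 subunit EEF1G at 442.7 ± 6.5 TPM (447.3 and 438.1) and the helicase EIF4A1 at 338.4 ± 10.6 TPM (331 and 345.9). EEF1B2, the nucleotide exchange subunit of eEF1, lay at 276.9 ± 3.53 TPM, EEF2 at 219.1 ± 0.172 TPM, EEF1D at 212.8 ± 6.06 TPM and EIF5A at 161.4 ± 9.19 TPM (SD, n = 2), so that the 5 genes of eEF1 and eEF2 were all among the first 6. The lowest were EIF1B at 6.04 ± 0.591 TPM (6.461 and 5.625), the eIF2B subunit EIF2B4 at 6.71 ± 1.19 TPM (7.553 and 5.868) and EIF5B, the GTPase of subunit joining, at 6.72 ± 0.885 TPM (7.345 and 6.093). These last 3 did not differ beyond their spread, and in 19 of the 40 pairs of neighbours in the order of levels the 2 libraries of the genes overlapped. In all, 14 factors were above 100 TPM and 8 under 20 TPM, and the highest level was 433-fold the lowest. The low end of this order depended on the isoforms counted. With isoforms typed as protein-coding in GENCODE 44 alone the fold was 2030, and the lowest were EIF3F at 1.14 TPM, for which 86.5% of counts were on isoforms not matched in that release, and EIF2B2 at 1.70 TPM, for which 33.8% of counts were on coding isoforms (EIF3F was named after its values were seen). The 41 genes took 2.62% to 2.85% of all counts in input libraries and 3.34% to 3.65% in pull-down libraries, of which EEF1A1 alone gave 44.8% to 48.7%. In bulk RNA of this kind, fewer cells with an mRNA and less of it per cell cannot be told apart.

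**Figure D1:**
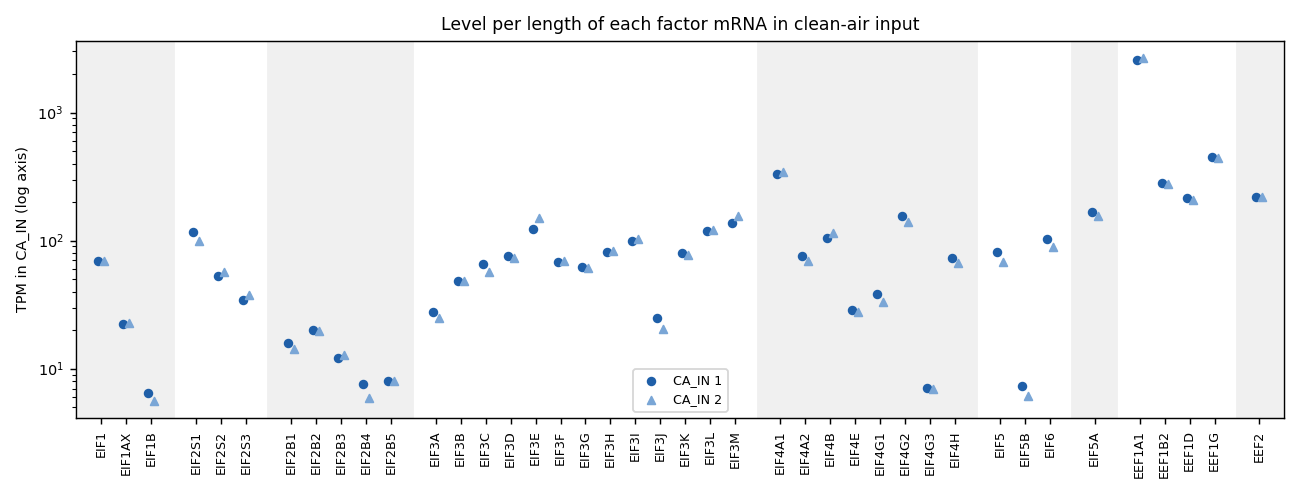
Level of each of the 41 factors in clean air input in TPM on a log axis, grouped by complex. EEF1A1 stands at 2615 TPM, above EEF1G at 442.7, and EIF1B is lowest at 6.04 with all isoforms summed; counting GENCODE 44 coding isoforms alone, EIF3F is lowest at 1.14.

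The pull-down was compared with input to ask which of these mRNAs the 8-oxoG antibody retained more or less of, relative to other genes, in clean air and after formaldehyde. Values below are CPM after TMM normalisation, which compare 1 gene between libraries, and log2 fold changes (log2FC) of pull-down over input with their standard errors. In clean air EEF1D, an exchange subunit of eEF1, rose in the pull-down and EIF1B, a close relative of the start-codon factor eIF1, fell. After formaldehyde EEF1D again rose. No factor was then called lower without a block, while 1 was with a block for the replicate number and 3 with a block for the RNA pool. In the fit without a block the remaining 39 factors did not pass the adjusted threshold in either treatment. Their values lay between those of EEF1D and EIF1B. More factors passed with a block, as given below.

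In clean air edgeR's quasi-likelihood test, adjusted over all genes, called 1 factor higher, against 0.148% of all genes called higher, and 1 lower, against 1.77% of all genes. After formaldehyde it called 1 factor higher, against 0.0329% of all genes, and 0 lower, against 1.47% (2 factors had an unadjusted p under 0.05 in that direction, and DESeq2 also called 0). At an unadjusted p under 0.05, 13 factors were higher in clean air (7.56% of all genes) and 10 after formaldehyde (4.31%), and 2 were lower in each (5.01% and 4.79%). The median log2FC of the 41 factors was 0.11 in clean air and 0.10 after formaldehyde, beside 0.02 and 0.00 over all genes tested, and 27 and 29 factors were above 0 (52.4% and 50.7% of all genes). With the RNA pool as a block, that is with a term for each pool from which input and pull-down were split, 14 factors were higher and 2 lower in clean air, against 11.6% and 5.85% of all genes. In that fit 10 were higher and 3 lower after formaldehyde, against 5.45% and 4.6% of all genes. Its terms leave little of the 8 libraries to estimate the spread of a single gene. Its small p-values therefore rest mainly on the spread that edgeR borrows across genes. A block for the replicate number in place of the pool gave 12 higher and 2 lower in clean air (6.77% and 3.87% of all genes) and 9 and 1 after formaldehyde (2.01% and 3.21%). With a block many genes of like abundance were called too, here 8599 protein-coding genes within the CPM range of the factors. With the RNA pool as a block 21.1% of them were higher and 8.14% lower in clean air, and 10.3% and 6.27% after formaldehyde. With the replicate block these shares were 13% and 5.26%, and 3.83% and 4.57%. Without a block they were 0.244% and 2.41%, and 0.0233% and 2.21%.

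**Figure D2:**
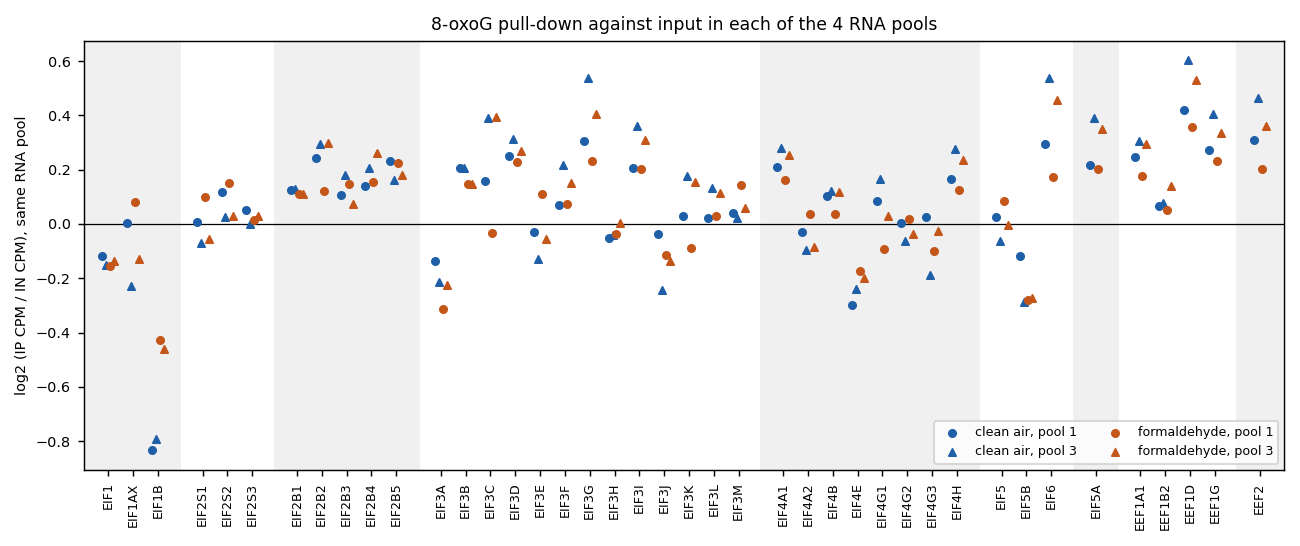
Log2 ratio of pull-down to input CPM for each factor in each of the 4 RNA pools (circles pool 1, triangles pool 3, blue clean air, orange formaldehyde), grouped by complex. EEF1D lies at 0.36 to 0.60 in all pools and EIF1B at -0.83 to -0.43.

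Among the scanning factors eIF1 and eIF1A, all 3 genes had a log2FC below 0 in both treatments. EIF1B stood at 13.44 and 12.05 CPM in CA_IN and at 7.524 and 6.946 CPM in CA_IP, with no overlap of the groups, and fell by 0.82 on the log2 scale (SE 0.142, edgeR adjusted p = 0.0212). After formaldehyde it stood at 12.23 and 12.41 CPM in FA_IN and at 9.07 and 8.998 CPM in FA_IP, and its log2FC was -0.45 (SE 0.142, edgeR adjusted p = 0.294). The groups did not overlap here either, and with the RNA pool as a block both values were called (edgeR adjusted p = 8.34e-06 and 0.00856). EIF1B is among the thinnest of the factors, with 144 to 585 expected counts per library, and its call in clean air was lost without any 1 of the 4 clean air libraries (edgeR adjusted p up to 0.177). EIF1, which keeps the scanning ribosome from initiating at wrong codons, lay at 191.8 and 199.7 CPM in CA_IN, 176.7 and 179.7 in CA_IP, 218.1 and 223.8 in FA_IN, and 196.2 and 203.4 in FA_IP. Its pull-down libraries were below their inputs in all 4 pools, with log2FC of -0.14 and -0.15 (SE 0.0745 each) that were not called in either fit. EIF1AX, the gene of eIF1A on the X chromosome, lay below input in 2 of 4 pools (log2FC -0.11 and -0.03). Scaled by library size in place of TMM, which moved the median of all genes to 0.16 in clean air and 0.17 after formaldehyde, 2 of these 3 genes had a log2FC above 0 and all 3 stayed below that median.

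The 3 subunits of eIF2 stayed near their input levels. EIF2S1, the alpha subunit whose phosphorylation slows initiation under stress, had 329 and 292.7 CPM in CA_IN against 330.9 and 278.7 in CA_IP, and 290.5 and 306.7 in FA_IN against 311.5 and 295.5 in FA_IP. The groups overlapped in both treatments, and the log2FC was -0.03 and 0.02 (SE 0.104 each). EIF2S2, the beta subunit, was the highest of the 3, with log2FC of 0.07 and 0.09 (SE 0.0825 each). No eIF2 subunit was called with the RNA pool as a block.

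All 5 subunits of eIF2B, the exchange factor of eIF2, had a log2FC above 0 in both treatments (0.13 to 0.27 in clean air, 0.11 to 0.21 after formaldehyde), and each lay above its input in all 4 pools. None passed the adjusted threshold. EIF2B2, the beta subunit and the highest of the 5, had 52.42 and 52.33 CPM in CA_IN, 62.01 and 64.16 in CA_IP, 57.9 and 53.04 in FA_IN, and 63 and 65.2 in FA_IP. Its groups did not overlap in either treatment, with log2FC of 0.27 (SE 0.0904, edgeR adjusted p = 0.239) and 0.21 (SE 0.0907, edgeR adjusted p = 0.537). With the RNA pool as a block it was higher in clean air alone (edgeR adjusted p = 0.0119 and 0.0732), a difference between treatments that was itself not called (-0.06, SE 0.103, edgeR adjusted p = 1). EIF2B1, the alpha subunit, was the lowest of the 5, at 0.13 and 0.11.

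The 13 subunits of eIF3, the scaffold of the initiating small subunit, were spread widely: 9 had a log2FC above 0 in clean air and 10 after formaldehyde. In all 4 pools 7 lay above input and 2 below. Scaled by library size 12 of 13 were above 0 in each treatment. The 9 and 10 above the median of all genes were as many as with TMM. EIF3G, which binds RNA and helps scanning, was the highest. It had 139.1 and 143 CPM in CA_IN against 171.8 and 207.6 in CA_IP, and 159.8 and 152.4 in FA_IN against 187.8 and 201.7 in FA_IP, so that pull-down libraries lay above input libraries in both treatments. Its log2FC was 0.43 (SE 0.102, edgeR adjusted p = 0.0871) and 0.32 (SE 0.102, edgeR adjusted p = 0.299), and with the RNA pool as a block the adjusted p was 0.000154 and 0.00367. At the other end EIF3A, the largest core subunit, had 369.1 and 342.2 CPM in CA_IN, 335.9 and 295 in CA_IP, 349 and 367 in FA_IN, and 281.1 and 313.9 in FA_IP. It lay below input in all 4 pools, with log2FC of -0.17 (SE 0.097) and -0.27 (SE 0.0972, edgeR adjusted p = 0.397). The block for the RNA pool left EIF3A uncalled in clean air and called it lower after formaldehyde (edgeR adjusted p = 0.0522 and 0.0056), where the replicate block did not (0.0819). With coding isoforms of GENCODE 44 alone, which leave out 64.5% of its counts as unmatched, EIF3A was at -0.62 in clean air (edgeR adjusted p = 0.0245).

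In that blocked fit 5 of the 13 eIF3 subunits were higher in clean air and 3 after formaldehyde, beside 11.6% and 5.45% of all genes and 21.1% and 10.3% of genes of like abundance. The genes outside the naming rule, chosen after their values were seen, were EIF3D, a subunit that can bind the cap, and EIF3I in both treatments, and EIF3B and EIF3C in clean air. Without the block EIF3D had log2FC of 0.28 and 0.25 (SE 0.0724 each) and EIF3I 0.29 and 0.26 (SE 0.107 each). EIF3CL, a near-identical copy, held 39.4% to 47% of the counts of EIF3C and EIF3CL together, so that EIF3C's log2FC of 0.27 and 0.19 is uncertain. The subunit EIF3J, also chosen after its values were seen, was the other one below input in all 4 pools, with log2FC of -0.13 in both treatments (SE 0.117).

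Of the 8 genes of the cap-binding complex and its relatives, 4 were above input in clean air and 3 after formaldehyde. Scaled by library size 7 were above input in each, while 4 and 3 lay above the median of all genes, as with TMM. EIF4A1, the helicase, was the highest, with 1187 and 1278 CPM in CA_IN against 1373 and 1552 in CA_IP, and 1299 and 1362 in FA_IN against 1455 and 1624 in FA_IP. The groups did not overlap, and the log2FC was 0.25 (SE 0.0971, edgeR adjusted p = 0.331) and 0.21 (SE 0.0971, edgeR adjusted p = 0.588), with 0.00445 and 0.0222 as adjusted p under the block for the RNA pool. EIF4E, the cap-binding protein, was the lowest, with 102.5 and 110 CPM in CA_IN against 83.35 and 93.2 in CA_IP, and 99.79 and 106.4 in FA_IN against 88.55 and 92.61 in FA_IP. Again the groups did not overlap, now with pull-down below input. The log2FC was -0.27 (SE 0.0918, edgeR adjusted p = 0.248) and -0.19 (SE 0.092, edgeR adjusted p = 0.638), and the blocked fit called it lower in clean air (edgeR adjusted p = 0.00584 and 0.0837).

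The scaffolds and the second helicase of this group moved little. EIF4G1, the main scaffold, had 417 and 368.2 CPM in CA_IN, 441.9 and 413.3 in CA_IP, 395.4 and 366.3 in FA_IN, and 370.6 and 373.9 in FA_IP, with overlapping groups and log2FC of 0.12 and -0.03. EIF4G2, a relative that lacks the site for eIF4E, had 1206 and 1137 CPM in CA_IN, 1210 and 1088 in CA_IP, 1092 and 1149 in FA_IN, and 1107 and 1120 in FA_IP (log2FC -0.03 and -0.01). EIF4A2, the paralogue of EIF4A1, had 326.7 and 294 CPM in CA_IN, 319.9 and 275 in CA_IP, 316.1 and 285.6 in FA_IN, and 324.2 and 269.1 in FA_IP (log2FC -0.06 and -0.02). All 3 overlapped between the groups in both treatments. A retained-intron isoform of EIF4A2 that contains the genes of 6 small RNAs (MIR1248, SNORA4, SNORA63, SNORA63B, SNORA81 and SNORD2) held 26.3% of its counts, and without it the log2FC of EIF4A2 was 0.04 and 0.05. EIF4H, a cofactor of the helicase named after its values were seen, was higher in clean air in the fit with the pool block (log2FC 0.22, SE 0.0613, edgeR adjusted p = 0.0144) and not with the replicate block (0.0545).

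**Figure D3:**
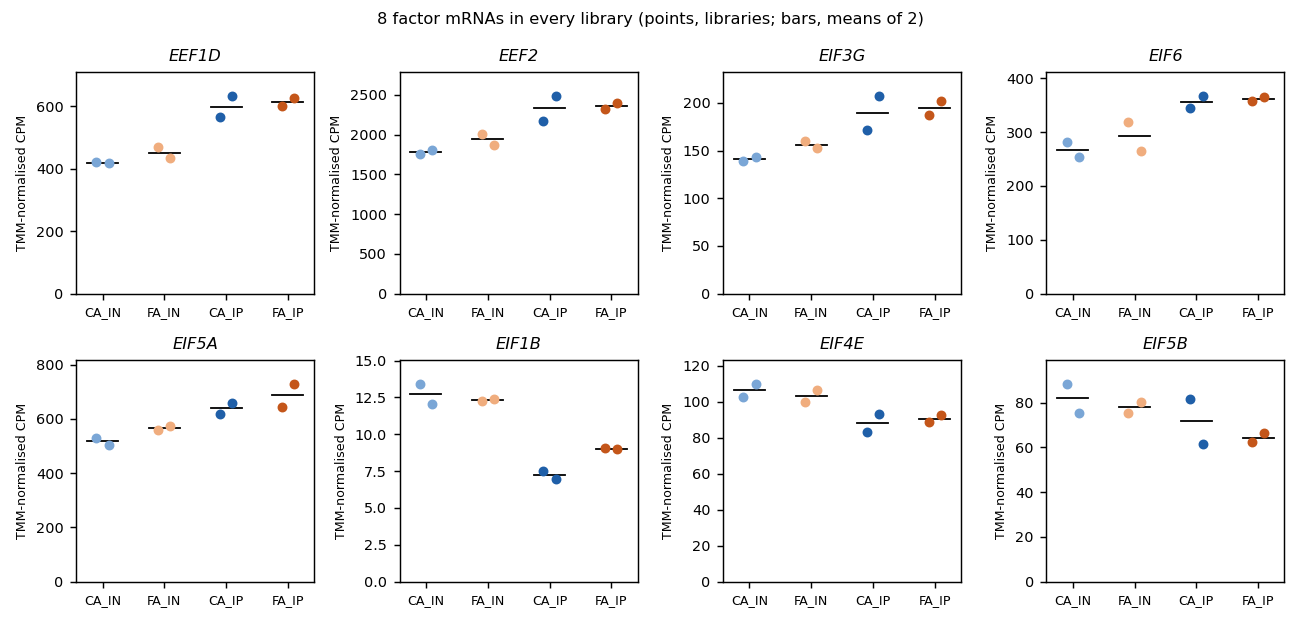
TMM-normalised CPM of 8 factor mRNAs in every library (points) with group means of 2 libraries (bars). In both treatments EEF1D lies higher in pull-down (564.8 to 634.4) than in input (417.7 to 470.1), and EIF1B lies lower (6.946 to 9.07 against 12.05 to 13.44).

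The 3 factors EIF5, EIF5B and EIF6 parted. EIF6 had 281.5 and 253.1 CPM in CA_IN against 345.4 and 367.8 in CA_IP, and 318.4 and 265.8 in FA_IN against 358.7 and 365.3 in FA_IP. Pull-down lay above input in both treatments without overlap, with log2FC of 0.42 (SE 0.104, edgeR adjusted p = 0.103) and 0.31 (SE 0.104, edgeR adjusted p = 0.334), and the blocked fit called both (edgeR adjusted p = 0.00027 and 0.00566). EIF5B had 88.48 and 75.29 CPM in CA_IN against 81.54 and 61.7 in CA_IP, and 75.54 and 80.39 in FA_IN against 62.28 and 66.52 in FA_IP. Its groups overlapped in clean air and did not after formaldehyde, with log2FC of -0.19 (SE 0.14) and -0.28 (SE 0.141, edgeR adjusted p = 0.657), and the blocked fit called it lower after formaldehyde (edgeR adjusted p = 0.0142) with an adjusted p of 0.053 in clean air. EIF5, the GTPase activator of eIF2, lay on both sides of its input (393 and 350.1 CPM in CA_IN, 400.2 and 335.2 in CA_IP, 325.8 and 321.1 in FA_IN, 345.6 and 320.3 in FA_IP; log2FC -0.02 and 0.04). EIF5A had 529.8 and 503.9 CPM in CA_IN, 616.7 and 660.6 in CA_IP, 559.2 and 573 in FA_IN, and 643.9 and 730.2 in FA_IP. Its pull-down libraries exceeded all inputs, with log2FC of 0.31 (SE 0.0887, edgeR adjusted p = 0.164) and 0.28 (SE 0.0887, edgeR adjusted p = 0.297), and with the block for the RNA pool the adjusted p was 0.00151 and 0.00545.

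All 4 eEF1 genes and EEF2, the elongation factors, lay above input in all 4 pools, with a median log2FC of 0.31 and 0.26 for eEF1. EEF1D stood at 422.2 and 417.7 CPM in CA_IN and at 564.8 and 634.4 in CA_IP, and it rose by 0.51 on the log2 scale, 1.43-fold (SE 0.0875, edgeR adjusted p = 0.0193). It stood at 470.1 and 433.6 CPM in FA_IN and at 601.8 and 627 in FA_IP, and rose by 0.44 (SE 0.0875, edgeR adjusted p = 0.0495). No pull-down library overlapped an input library, and the blocked fit gave adjusted p of 4.53e-06 and 3.9e-05. The calls without the block were close to the threshold. In clean air the call held in 2 of 8 fits that each left out 1 library (without replicate 1 of CA_IP or of FA_IP), with log2FC of 0.43 to 0.60 and edgeR adjusted p of 0.034 to 0.208. After formaldehyde it held in 2 of 8 (without either CA_IP library), with log2FC of 0.40 to 0.51 and edgeR adjusted p of 0.0433 to 0.368.

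EEF2, the translocase, had 1753 and 1806 CPM in CA_IN against 2175 and 2491 in CA_IP, and 2014 and 1872 in FA_IN against 2320 and 2403 in FA_IP. These groups did not overlap, and the log2FC was 0.39 (SE 0.0923, edgeR adjusted p = 0.0854; with the pool block 8.29e-05) and 0.28 (SE 0.0923, edgeR adjusted p = 0.318; with the pool block 0.0032). EEF1G had 1600 and 1618 CPM in CA_IN, 1934 and 2141 in CA_IP, 1761 and 1787 in FA_IN, and 2068 and 2256 in FA_IP (log2FC 0.34 and 0.29). EEF1A1 had 12180 and 13140 CPM in CA_IN, 14440 and 16250 in CA_IP, 13290 and 14110 in FA_IN, and 15030 and 17300 in FA_IP (log2FC 0.28 and 0.24). Both were without overlap and were not called with TMM scaling, the count filter and no block, and the fit with the pool block called both in both treatments (edgeR adjusted p from 0.00027 to 0.00502). EEF1B2 was the lowest of the eEF1 genes, with 511.7 and 518.5 CPM in CA_IN, 535.5 and 546.7 in CA_IP, 550.4 and 555.8 in FA_IN, and 570.6 and 613.1 in FA_IP, and log2FC of 0.07 and 0.10 that no fit called.

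Counted by RNA pool, 23 of the 41 factors (56.1%) lay above input in all 4 pools, beside 23.7% of all genes and 36.5% of the 8599 genes of like abundance. Below input in all 4 were 6 factors (14.6%), beside 17.2% and 20.6%: EIF1, EIF1B, EIF3A, EIF3J, EIF4E and EIF5B. The complexes were unequal in this count, with 5 of 5 eIF2B genes, 4 of 4 eEF1 genes, 7 of 13 eIF3 genes, 3 of 8 genes of the eIF4 group, 1 of 3 eIF2 genes and 0 of 3 genes of eIF1 and eIF1A above in all pools. By groups of libraries, both pull-down libraries exceeded both inputs for 18 factors in clean air (22.9% of all genes) and 20 after formaldehyde (18.9%), and lay below both for 5 (18.1%) and 6 (18.5%). With the pool as a block, 10 factors were higher in both treatments: EEF1A1, EEF1D, EEF1G, EEF2, EIF3D, EIF3G, EIF3I, EIF4A1, EIF5A and EIF6. Beside them 4.81% of all genes and 9.71% of genes of like abundance were higher in both. With the replicate block EIF4A1 was not called after formaldehyde (edgeR adjusted p = 0.0702). EIF1B was the factor lower in both, beside 3.79% and 5.5%.

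Pull-down and base composition were set side by side over the main coding isoform of each gene, as a description. The guanine share of the 41 isoforms ran from 18.7% in EIF1B to 33.8% in EEF1D, the same genes that had the lowest and the highest log2FC, with a median of 24.3% beside 24.8% over 13703 genes. The 10 factors with the least guanine (18.7% to 21.8%) had a median log2FC, averaged over the treatments, of -0.03, and 3 of them were above 0. The 10 with the most (28.2% to 33.8%), among them EIF3G, EEF2, EIF6 and EIF5A, had a median of 0.26, and all 10 were above 0. Spearman's rho between guanine share and log2FC was 0.791 in clean air and 0.702 after formaldehyde over the 41 genes, which share libraries and RNA pools. It was 0.651 and 0.507 over all 13703 genes, whose median log2FC went from -0.15 in the 1371 genes with the least guanine to 0.27 in the 1371 with the most, so the relation was not one of the factors alone. GC content gave rho of 0.822 and 0.723 and adenine -0.760 and -0.678 over the 41. Isoform length gave -0.332 and -0.407, and the length of the 3′ untranslated part -0.469 and -0.456. These traits of the isoforms cannot be told apart here. Without EIF1B the rho of guanine share in clean air was 0.775. The isoform used held at least 50% of the gene's counts for 25 factors, over which rho was 0.833 and 0.824, and it had the same length as in the files for 14, over which rho was 0.640 and 0.596. For guanine in the coding sequence alone rho was 0.685 and 0.603 over the 41. For FA_IN against CA_IN, which involves no pull-down, rho with guanine share was 0.405, beside 0.199 over all genes. GC content gave 0.495 there, adenine -0.476 and isoform length -0.508, beside 0.208, -0.172 and -0.209 over all genes. For EEF1D the isoform used held 24.1% of the counts.

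**Figure D4:**
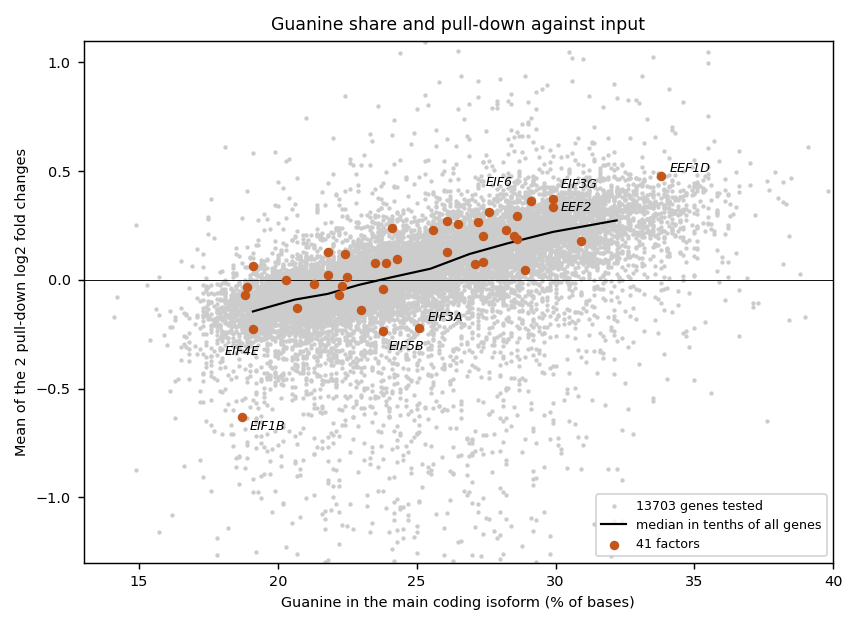
Guanine share of the main coding isoform (percent of bases) against the mean of the 2 pull-down log2 fold changes, for 13703 genes (grey; 98 lie outside the axes), with their median in 10 bins of equal size (line) and the 41 factors in orange. Both the line and the factors rise from left to right, from EIF1B at 18.7% to EEF1D at 33.8%.

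FA_IN was compared with CA_IN to ask whether formaldehyde changed the levels of the factor mRNAs 6 h after exposure. No factor passed the threshold in either direction, against 0% of all genes higher and 0.00548% lower with edgeR. The smallest adjusted p of a factor was 0.945, and 1 factor, EIF1, had an unadjusted p under 0.05 and was higher (1.21% of all genes higher, 2.14% lower). DESeq2 on the 8 libraries called 0 factors as well, and so did the fit with a replicate block, in which 0.0767% of all genes were higher and 1.34% lower. The differences were small: log2FC ran from -0.20 to 0.18, with a median of 0.09 over the factors and 0.02 over all genes.

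EIF1 was the factor with the smallest p, at 191.8 and 199.7 CPM in CA_IN and 218.1 and 223.8 in FA_IN, with no overlap (log2FC 0.18, SE 0.0743, 95% confidence interval 0.01 to 0.34, edgeR adjusted p = 0.945). EIF3K, a peripheral eIF3 subunit, had 136.1 and 135 CPM against 157.4 and 150.1 (log2FC 0.18, SE 0.0908). EIF5 was lower, with 393 and 350.1 CPM against 325.8 and 321.1 (log2FC -0.20, SE 0.105), and EEF1G higher, with 1600 and 1618 against 1761 and 1787 (log2FC 0.14, SE 0.0869). Libraries of the 2 groups did not overlap for any of these 4, and none was called (edgeR adjusted p = 0.945 for each). In all, both FA_IN libraries exceeded both CA_IN libraries for 18 factors (18.1% of all genes) and lay below both for 1, which was EIF5 (15.8%).

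The signs of the input differences were uneven. A log2FC above 0 was seen for 31 of the 41 factors (53.4% of all genes), among them all 13 eIF3 subunits (0.01 to 0.18), all 4 eEF1 genes (0.10 to 0.14), EEF2 (0.13) and EIF5A (0.13), but 4 of the 8 genes of the eIF4 group. Scaled by library size, which moved the median of all genes to -0.02, 25 factors were above 0. Among them were 11 of the 13 eIF3 subunits, all 4 eEF1 genes and 1 of the 8 in the eIF4 group. FA_IN lay above CA_IN at both replicate numbers for 25 factors (61%), beside 33.9% of all genes and 38.8% of genes of like abundance: 10 of 13 for eIF3, 4 of 4 for eEF1, 3 of 5 for eIF2B and 2 of 8 for the eIF4 group. Some of these mRNAs are known to carry a terminal oligopyrimidine tract, the element through which growth signals set the translation of elongation factor mRNAs. Of 9 such factors, 9 were above 0 (0.02 to 0.15), and 8 when scaled by library size. Of the 32 other factors 22 were above 0 too, and the medians were 0.11 and 0.06. The 9 include eEF1, EEF2 and eIF3 genes already counted above, and none was called.

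**Figure D5:**
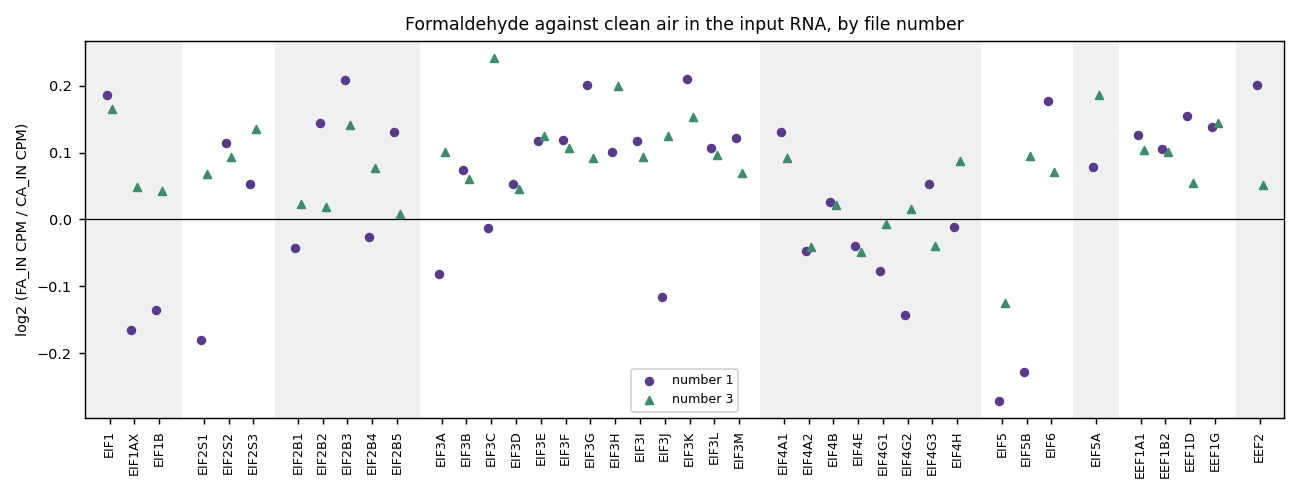
Log2 ratio of FA_IN to CA_IN CPM for each factor at each replicate number, grouped by complex. Most eIF3 and eEF1 genes lie slightly above 0 at both numbers, while EIF5 lies below at both.

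Whether formaldehyde changed the pull-down itself was tested as the interaction of treatment and pull-down. Without a block no factor was called, against 0% of all genes with edgeR. In that fit no factor had an unadjusted p under 0.05 (0.521% of all genes higher and 0.548% lower). The smallest p was that of EIF1B, whose pull-down value was 0.37 higher after formaldehyde on the log2 scale (SE 0.2, 95% confidence interval -0.09 to 0.82, edgeR adjusted p = 1). As its values above show, the input levels were alike and the formaldehyde pull-down libraries lay above the clean air ones. With the block for the RNA pool the difference of EIF1B was 0.37 (SE 0.155, edgeR unadjusted p = 0.0262, adjusted p = 1). With the replicate block it was 0.37 too (SE 0.164, edgeR unadjusted p = 0.0425). The fit with the pool block called 0 factors, against 0.11% of all genes higher and 0.0274% lower, and the replicate block called 0 factors too (0.0164% and 0%). EIF4G1 (-0.16, SE 0.127), EEF2 (-0.11, SE 0.13) and EIF3G (-0.11, SE 0.144) came next, and the last turned to 0.03 without replicate 2 of CA_IP. For EEF1D the difference was -0.07 (SE 0.123, 95% confidence interval -0.35 to 0.21), so the higher value in clean air lay within the error.

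At the level of isoforms, 553 transcripts of these genes were in the tables and 398 were tested. One of EEF1D, the coding isoform EEF1D-202 of 1249 bases, was higher in CA_IP (log2FC 0.68, SE 0.0727, edgeR adjusted p = 0.0402; 0.242% of 67873 transcripts were called in either direction). After formaldehyde it was not called (0.58, edgeR adjusted p = 0.0782), and 0 isoforms of the factors were (0.144% of transcripts). Its expected counts were 4016 and 3459 in CA_IN, 3606 and 3165 in CA_IP, 2652 and 3538 in FA_IN, and 2980 and 3766 in FA_IP, before any correction for the smaller pull-down libraries. No isoform was called between FA_IN and CA_IN (12 at an unadjusted p under 0.05) or in the interaction (8).

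Other genes of translation were taken as a list of 42, of which 41 were tested: eIF2 kinases, binding proteins of eIF4E, release and recycling factors, poly(A)-binding proteins and mitochondrial factors. In each treatment 0 were higher and 1 was lower in the pull-down, the same gene both times, MCTS1, whose product acts with DENR in reinitiation and recycling. Beside these counts, 0.148% of all genes were higher and 1.77% lower in clean air, and 0.0329% and 1.47% after formaldehyde. MCTS1 had 41.94 and 43.64 CPM in CA_IN against 23.5 and 24.94 in CA_IP, and 44.8 and 47.28 in FA_IN against 27.82 and 27.44 in FA_IP. Pull-down lay far below input in both treatments, and it fell by 0.82 (SE 0.101, edgeR adjusted p = 0.00287) and by 0.74 (SE 0.101, edgeR adjusted p = 0.00641) on the log2 scale. The median log2FC of this list was 0.01 and -0.01, beside 0.11 and 0.10 for the 41 factors. Between the inputs 0 of its genes were called (0% of all genes higher and 0.00548% lower). In the interaction 0 were called as well (0% of all genes).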

How the data were processed

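RNA of BEAS-2B cells was analysed in 8 libraries, 2 in each of 4 groups. The authors trimmed paired reads with cutadapt, aligned them with STAR 2.6.0a to the human genome (GRCh38, Ensembl release 94) and deposited RSEM 1.2.25 expected counts and effective lengths per transcript, not normalised, with no strand setting given. Versions are those of the submitters' processing notes. The authors also deposited tables of their own DESeq2 comparisons (log2 fold changes and p-values), which were not used here.

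Expected counts were summed by gene and rounded. Genes with at least 10 counts in at least 2 of 8 libraries were tested with edgeR 4.0.16 (TMM, quasi-likelihood, prior count 0.125, all 8 libraries) and limma 3.58.1 in R 4.3.3, with Benjamini-Hochberg adjustment over all genes and a threshold of 0.05. Levels were given as TPM recomputed from expected counts and effective lengths. TPM was compared between genes and CPM between libraries. Gene models and sequences came from GENCODE 44, in which 58207 of the 58735 genes were matched. Because this release is later than that of the files, the main coding isoform had the same length in both for 14 of 41 factors.

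The members and lists were chosen with earlier results of these data known. Named genes were the factors called in both pull-down comparisons, the lowest and highest of each complex, the 4 with the smallest p for formaldehyde in input and in the interaction, the 3 highest and lowest by TPM, and 12 fixed by role. Replicate numbers were taken from accession order, and the numbers 1 and 3, and with them the pairing of input and pull-down in a pool, from the tables' names and the study's methods. Deviations of the libraries numbered 1 from their group means correlated at 0.203 to 0.38 across groups. Alternatives were library size scaling, other filters, a prior count of 2, DESeq2 1.42.0, edgeR on 4 libraries, blocks for number or pool, effective-length offsets, coding isoforms alone, omission of isoforms that hold small RNAs, and each library left out. On simulated counts for CA_IP against CA_IN with 18242 genes, 12 of 50 log2 changes of 0.5 and 44 of 50 of 1 were recovered, with 1 other call. The changes were placed in well-counted genes alone, and the simulated libraries shared no RNA pool or replicate number. Recovery in thinly counted genes such as EIF1B was not simulated. Intervals of 95% are for the log2FC between groups. They rest on edgeR's estimate of the spread between these libraries, which borrows across genes.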

Additional observations from a re-analysis of the deposited data

How the results depend on the processing

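Counts of factors called are given as higher and lower in the pull-down. With edgeR on the 4 libraries of a comparison they were 0 and 0 in clean air (0.034% and 1.55% of all genes) and 0 higher after formaldehyde (0.065%). With library size in place of TMM 13 were higher in clean air (4.5% of all genes) and 7 after formaldehyde (1.74%), without a filter 6 were higher in clean air (0.411%), and with DESeq2 on 8 libraries 4 were (1.3% of genes with an adjusted p). With a replicate block 12 were higher and 2 lower in clean air, and 9 and 1 after formaldehyde. With the RNA pool block the counts were 14 and 2, and 10 and 3. The replicate block called 0 factors between the inputs, and both blocks called 0 in the interaction. With coding isoforms only 2 were lower in clean air (1.49% of all genes) and 0 higher after formaldehyde (0.015%). With a mean count of at least 50 the count higher after formaldehyde was 0 (0.0316% of all genes). Without isoforms that hold a small RNA it was 0 too (0.0275%). With 1 library left out the count in clean air was 0 to 2 higher and 0 to 1 lower, and after formaldehyde 0 to 1 higher. Calls of isoforms of the factors, summed over the 4 comparisons and both directions, numbered 5 without a filter and 26 with DESeq2. An isoform could count more than once in these sums, and the shares of all transcripts are not given here. Coding isoforms alone gave TPM of 2312 for EEF1A1, 308.4 for EIF4A1, 4.70 for EIF2B4 and 5.29 for EIF1B, and 1.14 for EIF3F, 1.70 for EIF2B2, 9.37 for EIF4A2 and 24.1 for EIF3L (EIF3F and EIF3L were named after their values were seen). The cause of these shifts was not tested.

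Of 1122 alternative values of 25 named genes, 1008 kept direction and side of the threshold, 58 passed it in addition, 22 no longer did and 34 turned sign, none of them called and none beyond 0.161. With library size, values in clean air and after formaldehyde were 0.0122 and 0.0251 for EIF1, 0.0394 and 0.139 for EIF1AX, 0.0870 and 0.154 for EIF4A2 and 0.120 and 0.161 for EIF4G2, with 0.120 for EIF2S1 in clean air and 0.139 for EIF4G1 after formaldehyde. With effective-length offsets EIF4A2 gave 0.0320 and 0.0420, EIF4G2 0.0032 and 0.0255 and EIF2S1 0.0480 in clean air. EIF2S1 gave -0.0155 after formaldehyde with coding isoforms only, and EIF4A2 0.0370 and 0.0511 without isoforms that hold a small RNA. With 1 library left out the ranges in clean air were -0.158 to 0.0903 for EIF2S1, -0.174 to 0.0440 for EIF4A2 and -0.107 to 0.0468 for EIF4G2. After formaldehyde they were -0.135 to 0.112 for EIF1AX, -0.0153 to 0.0814 for EIF2S1, -0.161 to 0.127 for EIF4A2, -0.0692 to 0.0325 for EIF4G1 and -0.0359 to 0.0451 for EIF4G2, and the interaction of EIF3G ranged from -0.238 to 0.0347. On the simulated counts, with changes in well-counted genes and no shared RNA pools, most log2 changes of 0.5 were missed at 2 libraries a group.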
